A study of Mus musculus with 5 samples.

Results

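The 47 genes examined here encode Wnt ligands, their receptors, the R-spondins and Dkk proteins that modulate them, and the nuclear effectors of the pathway. They were taken by name from 21887 protein-coding genes of the mouse annotation. They comprise 18 Wnt ligands, 12 receptors (10 Frizzled and 2 Lrp genes), 7 genes for R-spondins and their Lgr receptors, 4 Dkk genes, and a group of 6 made up of nuclear effectors and the pathway target Axin2. Open chromatin had been profiled by ATAC-seq, in which a transposase cuts accessible DNA and tags it for sequencing, in CD1 mouse embryos with no stated mutation or treatment. The tissues were ectoderm of the distal forelimb (2 libraries, E14.5), ectoderm of the distal hindlimb (2 libraries, E14.5) and forebrain (1 library, E13.5). Trypsin was used to part ectoderm from mesoderm, and collagenase to dissociate the forebrain, so that stage, tissue and enzyme cannot be told apart in this comparison. Whether a replicate is a separate litter or embryo is not stated in the labels.

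Wnt proteins bind a Frizzled receptor together with Lrp5 or Lrp6, which stops the breakdown of beta-catenin, and beta-catenin then enters the nucleus and acts with Lef1 and the Tcf factors on target genes. R-spondins bind Lgr receptors and keep Frizzled proteins at the cell surface, whereas Dkk1, Dkk2 and Dkk4 block Lrp5 and Lrp6. In the embryonic skin this pathway is required for hair follicles, nails and the apical ridge of the limb bud, and in the forebrain it patterns the dorsal telencephalon from the cortical hem.

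Each deposited list holds the peaks of 1 library, mapped to mm10. A peak row was given to a gene when its summit lay inside the gene body or within 50 kb of it with no other protein-coding gene nearer. The 47 genes held 264 and 227 peak rows in the forelimb lists, 152 and 278 in the hindlimb lists, and 456 in the forebrain list (replicate 1 before replicate 2, here and below). The whole lists held 82649, 81232, 55391, 86219 and 151077 rows in the same order. Each row is a summit, and a peak interval can hold more than 1. In distinct intervals the whole lists held 73830, 73718, 51510, 78147 and 120297. By that count the 47 genes held 233 and 200 in forelimb, 139 and 252 in hindlimb, with 354 in forebrain. As a rate among 10000 rows assigned to any gene, the 47 genes took 40.2 and 36.0 in forelimb, 34.8 and 40.4 in hindlimb, with 39.7 in forebrain, so the forebrain rate lay within the range of the ectoderm libraries. At least 1 row was found at 47 and 46 of the genes in forelimb, at 44 and 46 in hindlimb and at 46 in forebrain, where Dkk4 had none. Peaks of all lists were then merged into regions, of which 621 of 231612 belonged to these genes. A median of 10 regions belonged to each gene, from 2 at Dkk4 to 55 at Tcf7l2, against a median of 4 over all protein-coding genes. Fold enrichments below are the authors' values at the peak summit over local background, each within its own list, and percentiles are ranks by −log10 p within a list. Read totals were not used here, so the depth behind a peak is unknown, and intervals on shares cover counting error only.

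**Figure D1:**
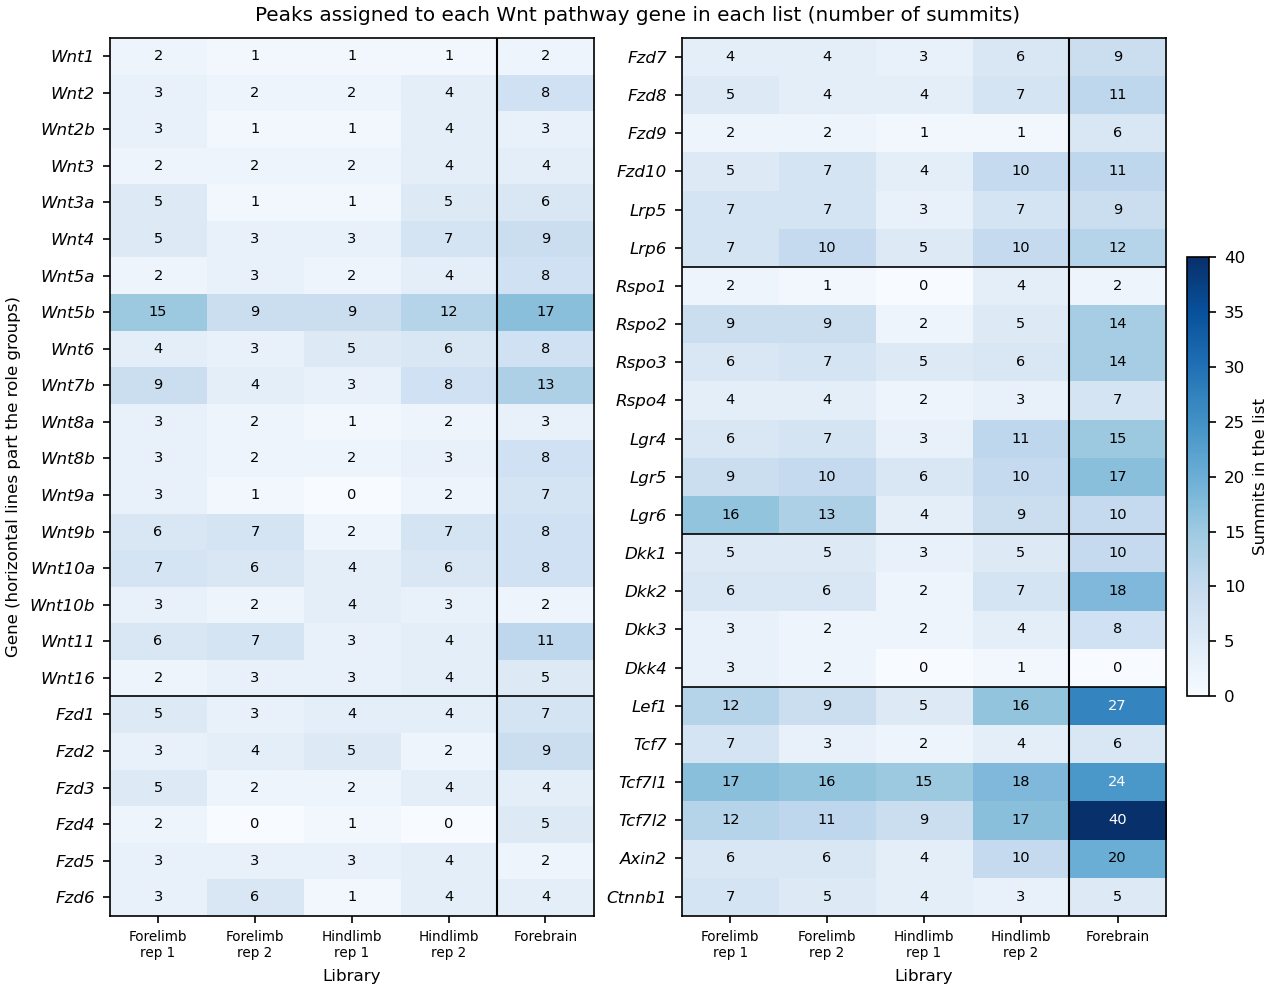
Number of peak summits assigned to each of the 47 genes (rows, parted by lines into role groups) in each of the 5 lists (columns), with darker blue for more summits. The forebrain list, the longest, has the most summits at most genes, with 40 at Tcf7l2 and 27 at Lef1, while Lgr6 has 16 and 13 in forelimb, 4 and 9 in hindlimb, with 10 in forebrain.

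Promoter sequences are shown first for Lef1, Tcf7l2 and Wnt11, which had an annotated start marked in 1 tissue alone, and for Wnt6. Of the 47 genes, 32 had at least 1 annotated start in the RefSeq promoter table (GRCm38.p6), with 41 starts in all. Lef1 start 1 and start 4 are shown because their peaks differed. Hindlimb and forebrain lists had a peak within 1 kb of the first. Every ectoderm list, but not forebrain, had one within 1 kb of the last. For Tcf7l2 and Wnt11, 1 start was marked in forebrain alone and the other in every list. The forebrain peak at Wnt11 start 1 was weak, at percentile 10.2 of its list. The Wnt6 window lies wholly inside a region open in all 4 ectoderm lists. Each run reads 5′ to 3′ from 250 bases before the start to 50 bases from it on, counting the start as the first of the 50. Capitals mark the TCF/LEF core CTTTGAT and the GC box GGGCGG on either strand, so that a match on the other strand reads ATCAAAG or CCGCCC here.
Lef1 start 1 (chr3:131110047-131110346, plus strand): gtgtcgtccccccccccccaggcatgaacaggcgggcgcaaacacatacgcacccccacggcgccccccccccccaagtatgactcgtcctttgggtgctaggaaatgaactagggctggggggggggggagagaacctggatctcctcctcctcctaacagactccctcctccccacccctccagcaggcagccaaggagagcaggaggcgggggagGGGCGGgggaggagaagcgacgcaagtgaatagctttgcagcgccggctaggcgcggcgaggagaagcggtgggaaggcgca
Lef1 start 4 (chr3:131156044-131156343, plus strand): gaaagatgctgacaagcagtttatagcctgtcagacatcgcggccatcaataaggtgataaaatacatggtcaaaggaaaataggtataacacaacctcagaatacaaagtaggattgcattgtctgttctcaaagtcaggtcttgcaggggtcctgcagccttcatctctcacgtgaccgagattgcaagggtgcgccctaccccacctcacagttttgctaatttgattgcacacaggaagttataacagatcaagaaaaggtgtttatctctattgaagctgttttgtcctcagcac
Tcf7l2 start 1 (chr19:55741560-55741859, plus strand): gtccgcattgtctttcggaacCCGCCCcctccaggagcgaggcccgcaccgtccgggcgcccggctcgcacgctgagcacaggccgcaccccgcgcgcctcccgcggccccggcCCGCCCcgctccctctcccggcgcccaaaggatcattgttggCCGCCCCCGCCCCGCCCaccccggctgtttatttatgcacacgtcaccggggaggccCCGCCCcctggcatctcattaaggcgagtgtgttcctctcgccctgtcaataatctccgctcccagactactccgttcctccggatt
Tcf7l2 start 2 (chr19:55895071-55895370, plus strand): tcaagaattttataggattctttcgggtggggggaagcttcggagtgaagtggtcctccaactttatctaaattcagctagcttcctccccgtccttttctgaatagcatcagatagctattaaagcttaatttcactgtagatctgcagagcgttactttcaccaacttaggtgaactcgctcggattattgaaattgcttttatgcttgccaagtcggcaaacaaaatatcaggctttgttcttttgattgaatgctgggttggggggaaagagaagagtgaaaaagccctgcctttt
Wnt11 start 1 (chr7:98834862-98835161, plus strand): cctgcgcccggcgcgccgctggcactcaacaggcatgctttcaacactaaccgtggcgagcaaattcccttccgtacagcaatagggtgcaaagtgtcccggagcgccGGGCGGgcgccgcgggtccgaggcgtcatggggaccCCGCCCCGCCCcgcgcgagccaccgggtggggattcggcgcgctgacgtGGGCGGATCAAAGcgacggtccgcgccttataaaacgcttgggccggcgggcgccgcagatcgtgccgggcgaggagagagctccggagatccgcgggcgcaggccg
Wnt11 start 2 (chr7:98838595-98838894, plus strand): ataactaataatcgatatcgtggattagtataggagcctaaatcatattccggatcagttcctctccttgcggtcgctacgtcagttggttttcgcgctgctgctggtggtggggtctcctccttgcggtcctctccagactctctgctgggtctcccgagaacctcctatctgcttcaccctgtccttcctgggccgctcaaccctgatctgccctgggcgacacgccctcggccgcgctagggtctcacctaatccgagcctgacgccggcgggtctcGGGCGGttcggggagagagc
Wnt6 (chr1:74771642-74771941, plus strand): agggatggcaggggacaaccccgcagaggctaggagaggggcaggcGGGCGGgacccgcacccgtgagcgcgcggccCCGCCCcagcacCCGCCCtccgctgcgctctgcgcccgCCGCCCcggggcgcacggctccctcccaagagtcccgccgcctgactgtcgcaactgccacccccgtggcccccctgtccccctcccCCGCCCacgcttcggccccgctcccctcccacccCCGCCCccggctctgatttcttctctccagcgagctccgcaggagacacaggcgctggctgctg

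The core CTTTGAT stood in 2 of the 41 member promoters (4.88%), at Wnt11 start 1 and Wnt5b start 3, against 3.22% of 21263 promoters of protein-coding genes. GGGCGG stood in 31 of 41 (75.6%), against 46.2% of all. The windows of Lef1 start 4 and Tcf7l2 start 2 held neither motif and had 5 and 7 CpG dinucleotides, against 18 at Lef1 start 1 and 34 at Tcf7l2 start 1. Wnt11 went the other way, with 45 at start 1, marked in forebrain alone, and 23 at start 2, marked in every list. Wnt6 had 31 CpG dinucleotides and 6 GC boxes. Over all promoters the median was 13 CpG dinucleotides, and over the member promoters it was 27. A match or its lack describes these letters only.

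Regions exclusive to a tissue were few on the ectoderm side and many on the forebrain side. A region was termed ectoderm-only when all 4 ectoderm lists called it and forebrain did not. It was termed forebrain-only when the forebrain list alone called it. Of the first kind the 47 genes had 22 and of the second 218, which were 3.54% (95% exact interval 2.23 to 5.31) and 35.1% (31.3 to 39.0) of their 621 regions. Among all 165522 regions within 50 kb of a protein-coding gene the shares were 2.33% and 31.9%. A further 47 regions of these genes had a peak in every list, 7.57% against 8.74% over all genes. The ectoderm-only share of the exclusive regions was 9.17% (5.83 to 13.55) for the 47 genes and 6.81% over all genes. At least 1 ectoderm-only region was found at 20 of the 47 genes (42.6%, against 13% of all genes), and at least 1 forebrain-only region at 44 (93.6%, against 52.2%). The members have more regions per gene than most, so a share of genes is not like for like here. More forebrain-only than ectoderm-only regions were found at 40 genes (85.1%, against 50.3%), equal numbers at 4, neither kind at Wnt1, Wnt2b and Dkk4, and the opposite balance at 0 (2.42% of all genes). Without hindlimb replicate 1 the opposite balance was found at 4 genes (Wnt10a, Lgr6, Dkk4 and Tcf7), against 1090 of the 21887 protein-coding genes. An ectoderm-only region was then found at 31 of the 47 genes, against 4877 of the 21887.

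The unequal design sets this balance in part, because an ectoderm-only region needs a peak in 4 lists and a forebrain-only one in 1. Hindlimb replicate 1, the shortest list, decided many calls: without it the counts were 52 and 222, a share of 18.98% against 12.6% over all genes. With every list cut to the length of the shortest they were 30 and 76, or 28.3% against 20.5%. No test between the tissues was made, since forebrain has 1 library, and an exact permutation test of 4 libraries against 1 cannot give a p-value below 0.2. Absence of a call is not proof of closed chromatin, and fewer cells with an open site cannot be told apart from a less open site in each cell.

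**Figure D2:**
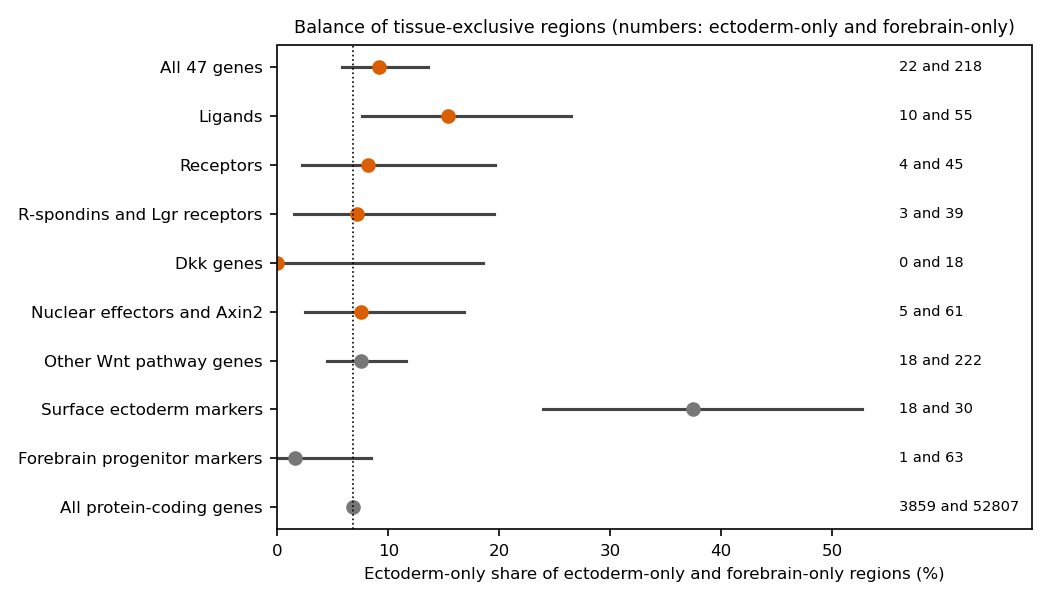
Ectoderm-only share (%) of the ectoderm-only and forebrain-only regions for all 47 genes, each role group and comparison lists; points are shares, bars exact 95% intervals for counting error, the dotted line the share over all protein-coding genes (6.81%), and the numbers the counts of both kinds. Ligands stand at 15.4% and surface ectoderm markers at 37.5%.

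The Wnt ligands had 10 ectoderm-only and 55 forebrain-only regions among 183. Their ectoderm-only share of 15.4% (7.63 to 26.5) was the highest of the role groups, whose intervals all overlapped it. With lists of equal length ligands stood at 31.2%, below R-spondin and Lgr genes at 41.2% and receptors at 35.0%. Ligands took 12.6 and 9.35 of 10000 assigned rows in forelimb, 11.0 and 12.5 in hindlimb, with 11.3 in forebrain, so the tissues overlapped in this rate. The ligands with an ectoderm-only region were Wnt10a, with 2, and Wnt3, Wnt4, Wnt5b, Wnt6, Wnt7b, Wnt8a, Wnt10b and Wnt16, with 1 each. Wnt4, Wnt6, Wnt7b, Wnt10a and Wnt10b are known as ligands made by embryonic epidermis. Expression was not measured here, so whether these regions go with ligand production was not tested. The other 9 ligands had none, among them Wnt8b and Wnt2b, known from the cortical hem, and Wnt5a and Wnt11, which act mostly outside the beta-catenin branch. Wnt2b had no forebrain-only region either. Without hindlimb replicate 1, the shortest list, Wnt1, Wnt3a and Wnt5a had 1 ectoderm-only region each.

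Within Wnt4, the region chr4:137282629-137283231 lay 5.22 kb from the start. Its fold enrichment was 5.99 and 5.07 in forelimb replicates 1 and 2 and 4.47 and 7.44 in hindlimb replicates 1 and 2, and it ranked at percentile 84.1 or higher in each list. All 4 ectoderm lists thus placed it among their stronger peaks. Wnt7b, a ligand made by both epidermis and cortex, had an ectoderm-only region at chr15:85519473-85519878, 15.8 kb outside the gene. Folds there were 5.59 and 5.64 in forelimb and 4.78 and 7.71 in hindlimb. The same gene had 7 forebrain-only regions, the most of any ligand.

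Wnt6 and Wnt10a lie side by side on chromosome 1 with 6.70 kb between them, and together they had 3 ectoderm-only regions and 6 forebrain-only ones. The Wnt6 region chr1:74771313-74772010 covered the annotated start. Its folds were 4.20 and 4.87 in forelimb and 5.33 and 8.07 in hindlimb, with summits at -223 and -185 bases from the start in the forelimb lists and -195 and -207 in the hindlimb lists. Forebrain had its own peak 425 bases downstream of the start, with a fold of 2.55 and at percentile 28.1 of its list. Only 146 bp parted that forebrain peak from the ectoderm region, so Wnt6 counts as having a peak at its start in every list. Inside Wnt10a, whose loss impairs hair and teeth, chr1:74794510-74794885 had folds of 3.78 and 4.21 in forelimb and 3.45 and 5.69 in hindlimb. A second region lay 1.44 kb outside the gene, with folds of 4.23 and 4.36 in forelimb and 2.85 and 4.41 in hindlimb.

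Wnt3 and Wnt9b overlap by 1098 bp on chromosome 11. A Wnt3 region, chr11:103780184-103780566, was ectoderm-only with folds of 6.06 and 5.15 in forelimb and 3.44 and 8.54 in hindlimb. At the start of Wnt3 itself all 5 lists had a peak, with folds of 5.43 and 6.42 in forelimb, 3.58 and 6.93 in hindlimb, with 5.30 in forebrain; its strongest summit falls inside Wnt9b, to which the region was assigned. Wnt9b had 3 forebrain-only regions and 0 of the other kind. The neighbours Wnt3a and Wnt9a, 16.1 kb apart, had 0 ectoderm-only regions each and 2 and 5 forebrain-only regions. Wnt10b and Wnt1 lie 11.7 kb apart on chromosome 15. Wnt10b had an ectoderm-only region inside the gene with folds of 3.34 and 2.27 in forelimb and 2.11 and 3.60 in hindlimb. It was the weakest of the 22, at percentile 3.02 in hindlimb replicate 1. No list had a peak within 1 kb of the annotated start of either gene.

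Among the remaining ligands, Wnt5b had an ectoderm-only region inside the gene, chr6:119499327-119499663, with folds of 6.40 and 4.97 in forelimb and 3.47 and 7.39 in hindlimb. It also had the forebrain-only region chr6:119492141-119493003, with a fold of 8.80 at percentile 87.0 of the forebrain list. Wnt8a had an ectoderm-only region 6.44 kb outside the gene, with folds of 4.42 and 8.21 in forelimb and 4.63 and 11.0 in hindlimb. At Wnt16 the folds were 5.62 and 6.84 in forelimb and 3.12 and 5.47 in hindlimb, and a forebrain peak lay only 12 bp away. After Wnt7b, most forebrain-only regions were found at Wnt5a, Wnt5b, Wnt8b, Wnt9a and Wnt11, with 5 each. Wnt4 and Wnt6 had 4 each, Wnt2 and Wnt9b 3 each, Wnt3, Wnt3a and Wnt10a 2 each, and Wnt8a, Wnt10b and Wnt16 1 each. Without hindlimb replicate 1, ligands had 17 and 56 regions (23.3%), with 3 ectoderm-only regions each at Wnt7b and Wnt10a. With all 5 lists in use, surface ectoderm markers, genes of epidermal identity and adhesion, had a share of 37.5% (23.95 to 52.6), and ligands 15.4%.

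All 12 receptors had a peak within 1 kb of a start in every list, whereas 5 of 18 ligands did, and 48.5% of all protein-coding genes. Where the table gives no start, either end of the gene was used, which held for 6 of the receptors and 4 of the ligands. A start peak may be assigned to a nearer neighbour, as at Fzd4, which has a start peak in every list and 0 assigned summits in forelimb replicate 2 and hindlimb replicate 2. Fzd1, for example, had folds of 11.4 and 9.95 in forelimb, 7.88 and 13.52 in hindlimb, with 12.8 in forebrain at its start. Receptors had 4 ectoderm-only and 45 forebrain-only regions among 122, a share of 8.16% (2.27 to 19.6). A peak in all 5 lists marked 15 of their regions, or 12.3% (7.05 to 19.5), against 8.74% over all genes.

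The 4 receptor genes with an ectoderm-only region were Fzd1, Fzd2, Fzd10 and Lrp6, with 1 each. At Fzd10 the region chr5:128649272-128650133 lay 45.5 kb beyond the gene, near the limit of 50 kb. Folds there were 6.55 and 5.42 in forelimb and 5.01 and 11.2 in hindlimb, and it ranked at percentile 84.7 or higher in each ectoderm list. Upstream of Fzd1 at 9.82 kb, chr5:4767879-4768239 had folds of 7.62 and 7.94 in forelimb and 4.71 and 12.01 in hindlimb. Within the co-receptor gene Lrp6, chr6:134516436-134516790 had folds of 9.29 and 6.42 in forelimb and 4.49 and 11.1 in hindlimb. The region assigned to Fzd2 was weaker, at folds of 3.85 and 5.14 in forelimb and 3.66 and 5.61 in hindlimb.

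Forebrain-only regions were found at all 12 receptors. Fzd10 had 9, Lrp6 had 7, Fzd8 had 6 and Fzd2 had 5. Fzd1, Fzd7, Fzd9 and Lrp5 had 3 each, Fzd3 and Fzd4 had 2 each, and Fzd5 and Fzd6 had 1 each. Fzd5 had 3 and 3 summits in forelimb, 3 and 4 in hindlimb, with 2 in forebrain. Lrp6 had 7 and 10 in forelimb, 5 and 10 in hindlimb, with 12 in forebrain. At a −log10 q of 5 or more, receptors had 4 ectoderm-only regions, not all the same ones, since the Fzd2 region fell short in forelimb replicate 1, and 28 forebrain-only ones. Without hindlimb replicate 1 they had 8 and 45. Between 40 and 50 kb from any of the 47 genes lay 29 regions, with 1 ectoderm-only and 14 forebrain-only, and between 50 and 60 kb lay 25, with 0 and 10.

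The R-spondins and their Lgr receptors had 3 ectoderm-only and 39 forebrain-only regions among 113, a share of 7.14% (1.498 to 19.5). All 3 ectoderm-only regions were at the receptors Lgr4, Lgr5 and Lgr6. The 4 R-spondins had 0 ectoderm-only and 19 forebrain-only regions (upper bound of the share 17.6%), of which Rspo2 and Rspo3 had 8 each, Rspo4 had 2 and Rspo1 had 1. With 56 regions in all and an ectoderm-only share of 2.33% over all genes, a count of 0 is near the background, and without hindlimb replicate 1 there was 1, at Rspo3. Rspo2, a limb ridge R-spondin, had 9 and 9 summits in forelimb, 2 and 5 in hindlimb, with 14 in forebrain. Rspo4, the R-spondin needed for nails, had 4 and 4 in forelimb, 2 and 3 in hindlimb, with 7 in forebrain. Rspo1 had 2, 1, 0 and 4 summits in the ectoderm lists and 2 in forebrain.

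Lgr4 held strong exclusive regions of both kinds. Its ectoderm-only region chr2:109969782-109970307, inside the gene, had folds of 9.09 and 8.82 in forelimb and 7.44 and 14.0 in hindlimb. By the lowest of its within-list ranks, percentile 89.7, it stood ahead of the other 21 ectoderm-only regions. The nearest forebrain peak was 9056 bp away, at chr2:109959759-109960726. That peak was itself forebrain-only, with a fold of 12.03 at percentile 93.9, and another, chr2:109942869-109943738, had a fold of 8.93 at percentile 89.9. The start of Lgr4 was open everywhere, at folds of 16.6 and 16.6 in forelimb, 11.2 and 19.1 in hindlimb, with 15.0 in forebrain. In all Lgr4 had 1 ectoderm-only and 9 forebrain-only regions, so that open sites inside a single gene were marked differently in the tissues.

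Lgr5, a stem cell receptor of hair follicles and gut, held the forebrain-only region with the highest −log10 p of the set. This was chr10:115468749-115469576, with a fold of 13.7 at percentile 94.4 and no ectoderm peak within 8929 bp. Its ectoderm-only region, 5.63 kb outside the gene, had folds of 4.51 and 3.86 in forelimb and 3.33 and 5.59 in hindlimb. Lgr6, which marks stem cells of the upper hair follicle, had 16 and 13 summits in forelimb, 4 and 9 in hindlimb, with 10 in forebrain. It was the gene of this group whose rate among 10000 assigned rows was higher in every ectoderm list than in forebrain. That order was found at 27.4% of all genes with a row. The margin was narrow in hindlimb replicate 1, at 0.916 against 0.870 in forebrain. Both forelimb lists and hindlimb replicate 2 had a peak at the Lgr6 start, with folds of 2.99, 3.70 and 4.33, and neither hindlimb replicate 1 nor forebrain had one. Without hindlimb replicate 1, Lgr6 had 5 ectoderm-only regions and 4 forebrain-only ones, the group 10 and 39, and with lists of equal length the group had 7 and 10.

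**Figure D3:**
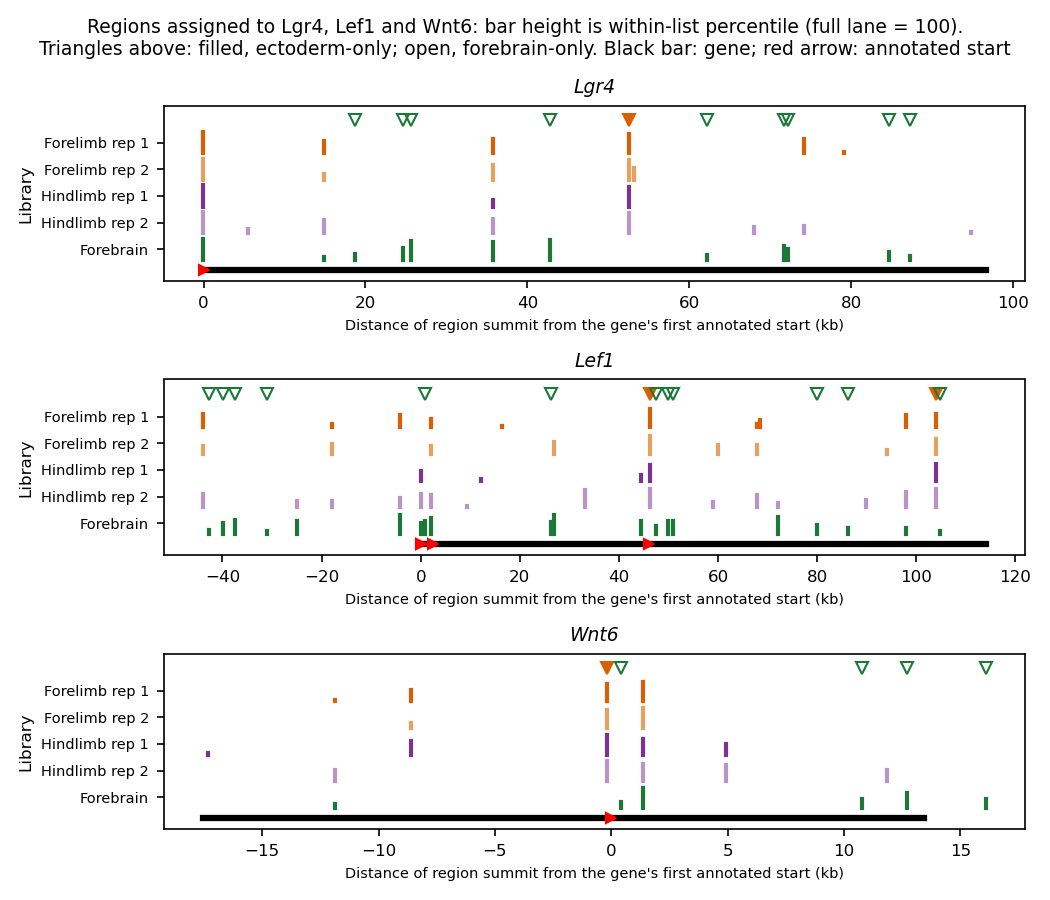
Regions assigned to Lgr4, Lef1 and Wnt6 by distance in kb from the gene's first annotated start (x axis), with a lane for each library; bar height is the within-list percentile of the strongest peak, filled triangles are ectoderm-only and open triangles forebrain-only regions. In Lgr4 the ectoderm-only region stands 52.5 kb from the start and the strongest forebrain-only one 42.8 kb, and in Lef1 an ectoderm-only region stands beside start 4. The black Wnt6 bar, the annotated gene body, begins upstream of its start in the promoter table.

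Among 44 regions of the Dkk genes, 0 were ectoderm-only and 18 forebrain-only, which allows an ectoderm-only share of up to 18.5% (upper exact bound). Over all genes 2.33% of regions were ectoderm-only and 31.9% forebrain-only, so a count of 0 is near the background, while the forebrain-only share of the Dkk regions was 40.9% (26.3 to 56.8). Dkk genes took 2.59 and 2.38 of 10000 assigned rows in forelimb, 1.60 and 2.47 in hindlimb, with 3.13 in forebrain, so each ectoderm list lay below forebrain. The forebrain-only regions were at Dkk2 (11), Dkk3 (4) and Dkk1 (3). Dkk2 had 6 and 6 summits in forelimb, 2 and 7 in hindlimb, with 18 in forebrain. Dkk1, the blocker of Lrp5 and Lrp6 made by limb mesenchyme, had 5 and 5 in forelimb, 3 and 5 in hindlimb, with 10 in forebrain. Summits are not separate sites. By region, forebrain had a peak at Dkk1 in 3 forebrain-only regions, 1 called in every list and 1 shared with some ectoderm lists. Dkk3, a relative with no clear effect on Lrp6, had 3 and 2 in forelimb, 2 and 4 in hindlimb, with 8 in forebrain. For these 3 genes the rate among 10000 rows was lower in every ectoderm list than in forebrain, an order found at 18.8% of all genes with a row. At Dkk1 the margin was narrow, at 0.793 in forelimb replicate 2 against 0.870 in forebrain. Dkk4, known from hair placodes, had 3 and 2 summits in forelimb, 0 and 1 in hindlimb, with 0 in forebrain. Without hindlimb replicate 1 there were 3 ectoderm-only regions in the group, 1 each at Dkk2, Dkk3 and Dkk4.

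The nuclear effectors and Axin2 had 5 ectoderm-only and 61 forebrain-only regions among 159, a share of 7.58% (2.51 to 16.8). They took 9.28 and 7.93 of 10000 assigned rows in forelimb, 8.93 and 9.87 in hindlimb, with 10.6 in forebrain, and again each ectoderm list lay below forebrain. By gene, that order held at Lef1, Tcf7l2 and Axin2, the reverse at Tcf7l1 and Ctnnb1, and at Tcf7 the tissues overlapped. The gap was widest at Tcf7l2, with rates of 1.83 and 1.74 in forelimb, 2.06 and 2.47 in hindlimb, with 3.48 in forebrain. The group rate was not recounted without Tcf7l2. Lef1, the effector of hair placode and dermal signalling, had 2 and 12 regions. Tcf7l2 had 1 and 26, the most forebrain-only regions of the 47 genes, and 12 and 11 summits in forelimb and 9 and 17 in hindlimb, against 40 in forebrain. Tcf7l1, a repressor in epidermal stem cells, had 1 and 11, and Axin2, a direct target and feedback inhibitor of the pathway, had 0 and 8. Ctnnb1, the gene for beta-catenin, had 1 and 3, and Tcf7 had 0 and 1. Without hindlimb replicate 1, Tcf7 had 2 and 1, which turns its balance, and Axin2 had 2 and 8. The Tcf7l1 region chr6:72763651-72764000 had folds of 3.88 and 5.86 in forelimb and 4.61 and 7.52 in hindlimb. Its forebrain-only region chr6:72730367-72730919, at a fold of 9.01 and percentile 88.2, began 31 bp from an ectoderm peak. At Axin2 the forebrain-only region chr11:108934854-108935909 had a fold of 6.92 at percentile 86.7. The single ectoderm-only region of Tcf7l2 was weak, at folds of 2.85 and 4.67 in forelimb and 3.57 and 3.15 in hindlimb and at percentile 7.02 in forelimb replicate 1.

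Lef1 and Tcf7l2 each had an internal start marked in 1 tissue. At Lef1 start 4, on chromosome 3 at position 131156294, the ectoderm-only region chr3:131156404-131156817 had folds of 6.47 and 6.64 in forelimb and 3.74 and 6.71 in hindlimb. The summits lay 255 to 297 bases downstream of the start in the 4 lists, and the region begins beyond the window printed above. Forebrain had no summit within 1 kb of that start, and its nearest peak was 823 bp from the region. Lef1 start 1 gave a different picture. Neither forelimb list had a peak there, and the hindlimb lists had folds of 2.75 and 3.80, with summits 12 and 6 bases downstream. The strongest forebrain peak within 1 kb had a fold of 2.77, with its summit 926 bases downstream and outside the printed window. Tcf7l2 start 2 had a forebrain peak with a fold of 5.25, 228 bases downstream, and none in the 4 ectoderm lists. Tcf7l2 start 1 was open in every list, at folds of 6.69 and 6.69 in forelimb, 4.26 and 6.58 in hindlimb, with 8.91 in forebrain. The other start marked in forebrain alone, Wnt11 start 1, rested on a weak peak with a fold of 2.15 at percentile 10.2.

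Of the 41 annotated starts, 1 (2.44%) had a peak in all ectoderm lists and not in forebrain, against 0.55% of the 21263 starts of protein-coding genes. In the opposite pattern were 2 (4.88%, against 4.52%), in every list 18 (43.9%, against 47.3%) and in none 3 (7.32%, against 29.2%). Counted by gene, with any start or end sufficing, 26 of 47 genes had a peak in every list (55.3%, against 48.5%). None of the 47 had one in all 4 ectoderm lists and not forebrain (0.516% of all genes), and none had one in forebrain alone (3.85%). The second pattern held 7 genes at a −log10 q of 5 or more (Wnt5a, Wnt8a, Wnt9a, Rspo1, Rspo3, Dkk2 and Dkk3). Wnt6 alone joined the first pattern there. Shares over all genes were not counted at this cutoff. It left 150 of 264 and 145 of 227 member peak rows in forelimb. In hindlimb it left 71 of 152 and 172 of 278, and in forebrain 318 of 456.

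**Figure D4:**
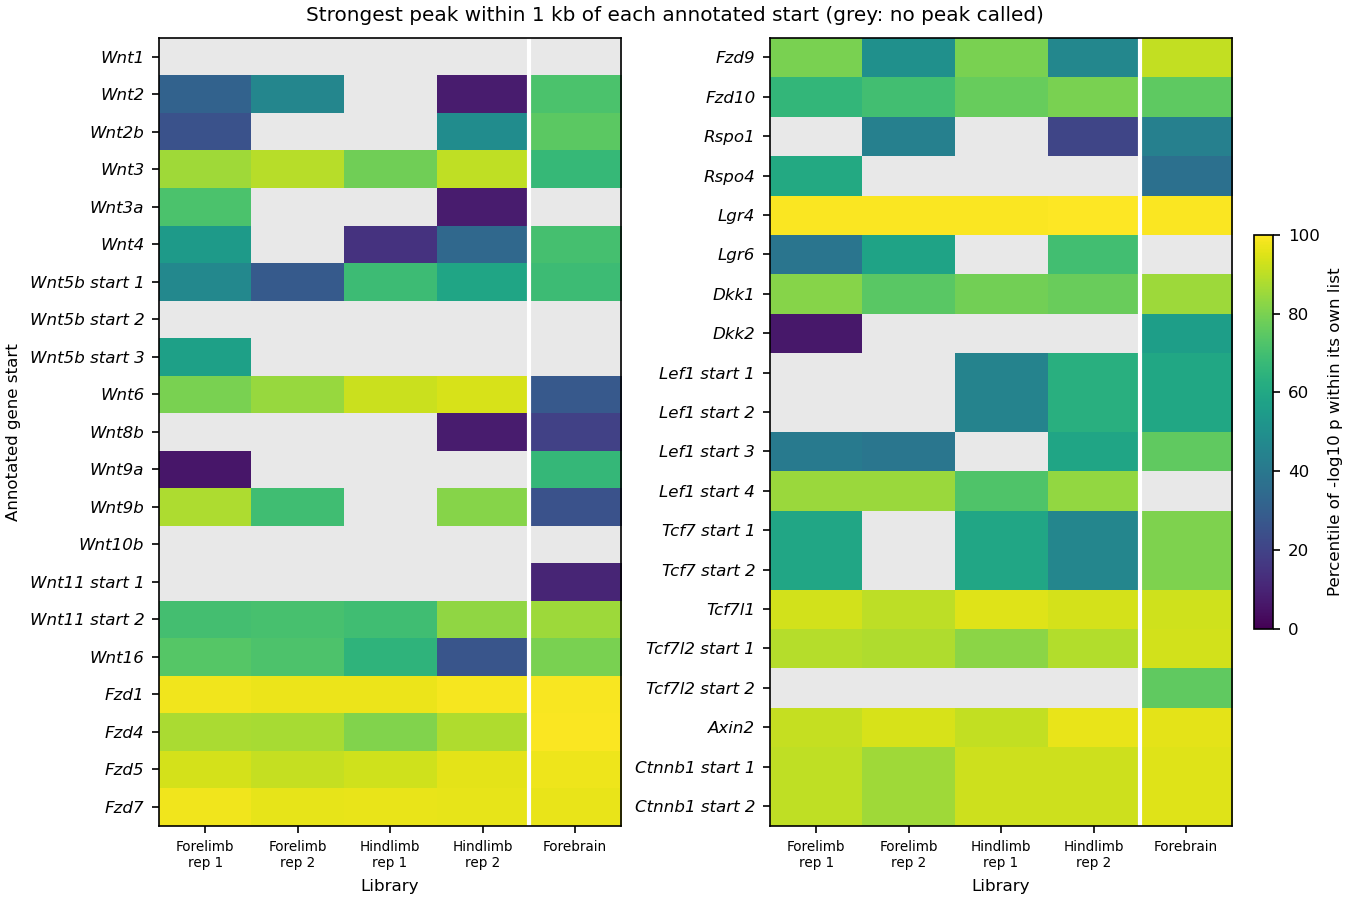
Strongest peak within 1 kb of each of the 41 annotated starts (rows) in each list (columns), coloured by its percentile of −log10 p within its own list, with grey where no peak was called. Frizzled genes and Lgr4 are coloured in every list, Lef1 start 4 in the 4 ectoderm lists alone, and Tcf7l2 start 2 in forebrain alone.

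Of the 22 ectoderm-only regions, 10 lay inside a gene and 2 near an annotated start (Wnt6 and Lef1), with the rest upstream, downstream or outside. Of all 621 regions of the set, 307 lay inside a gene and 65 at a start or end, shares near those of the 22. Of the 218 forebrain-only regions, 119 lay inside a gene and 12 at a start or, where none was given, a gene end. For the 47 open in every list these counts were 15 and 23. Placement was not counted for regions of all genes. Folds of the 22 ran from 2.11 to 14.0, and in 16 of them all 4 ectoderm lists passed a −log10 q of 5. Median folds over the set were 4.46 and 5.28 in forelimb and 3.82 and 7.42 in hindlimb, against 5.37, 5.48, 3.84 and 7.10 for ectoderm-only regions of all genes in the same lists. A forebrain peak lay within 1 kb of 5 of them, and the median distance to the nearest forebrain peak was 3318.5 bp.

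**Figure D5:**
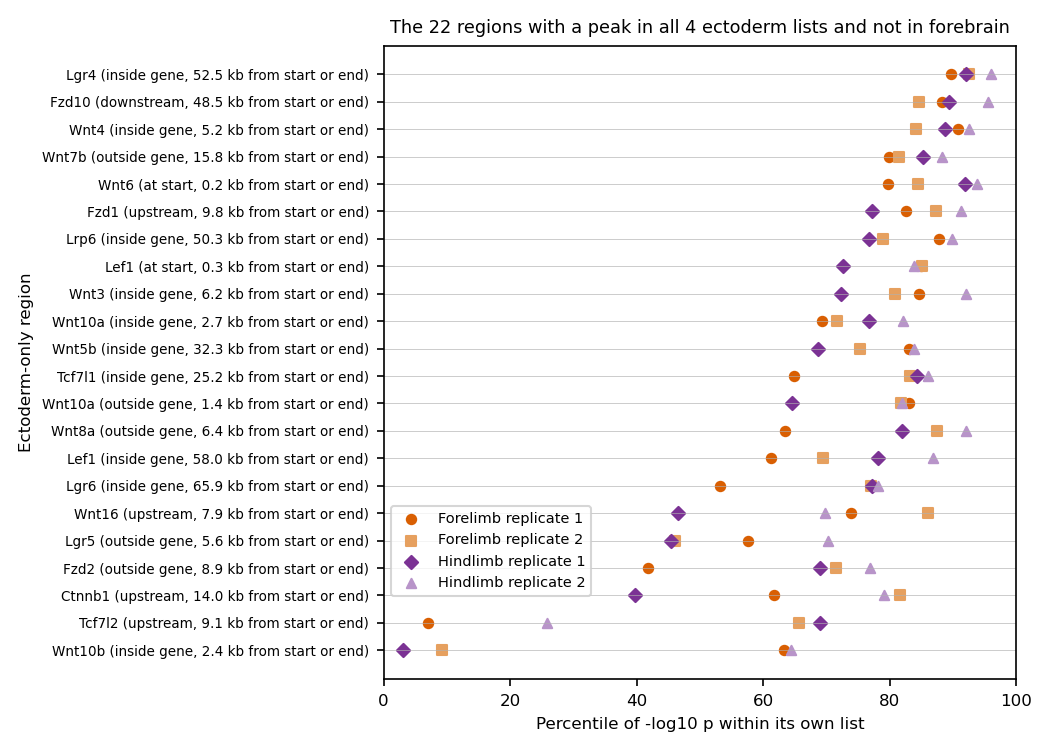
Within-list percentile of −log10 p (x axis) of the 22 ectoderm-only regions (rows) in the 4 ectoderm lists (symbols). In 16 regions every list ranks the peak above its 50th percentile; those at Wnt10b and Tcf7l2 are near the bottom of at least 1 list.

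Per gene, the rate of summits among 10000 assigned rows was higher in all 4 ectoderm lists than in forebrain at Wnt10a, Wnt10b, Fzd5, Lrp6, Lgr6, Tcf7l1 and Ctnnb1. These 7 genes were 14.9% of the set, against 27.4% of all genes with a row. The rate was lower in all ectoderm lists at 13 genes, 27.7% against 18.8%. These 13 were Wnt2, Wnt5a, Wnt8b, Wnt9a, Fzd4, Fzd9, Rspo3, Dkk1, Dkk2, Dkk3, Lef1, Tcf7l2 and Axin2. With counts as low as 0 to 5 at several of them, a single summit can decide the order. The order was not recounted by distinct interval.

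Forelimb and hindlimb ectoderm differed at few of these genes. A peak in both forelimb lists and in neither hindlimb list marked 3 regions, at Fzd8, Lrp5 and Tcf7l1 (0.483% of member regions, against 1.98% of all). The opposite marked 6, at Wnt4, Wnt6, Wnt7b, Dkk3, Lef1 and Tcf7l2 (0.966%, against 0.663%). Forelimb folds were 5.90 and 3.31 at Fzd8, 5.10 and 3.78 at Lrp5 and 2.96 and 3.31 at Tcf7l1. Hindlimb folds ran from 2.21 to 4.48 and were highest at Wnt6, with 2.63 and 4.48. At Wnt4, Dkk3 and Lef1 the hindlimb-only region lay within 1 kb of a start or gene end and forebrain had a peak there as well. At a −log10 q of 5 or more, 0 regions were hindlimb-only. No test was made between limbs, and an exact permutation test of 2 libraries against 2 cannot give a two-sided p-value below 0.333.

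The other genes of the pathway were counted by list. A set of 48 further genes for secretion, inhibition, destruction complex, planar polarity and nuclear cofactors had 18 ectoderm-only and 222 forebrain-only regions among 682 (7.50%, 4.51 to 11.6). Secretion genes had 1 and 5, secreted inhibitors 1 and 28, and membrane inhibitors 3 and 30. Those for the destruction complex and Dvl had 2 and 29, planar polarity genes 8 and 81, and nuclear cofactors 3 and 49. At a start or end, 36 of the 48 had a peak in every list (75.0%, against 48.5% of all genes). The tissue labels were set against markers. Surface ectoderm markers had 18 and 30 regions and forebrain progenitor markers 1 and 63. Markers of cells a dissection could carry over had 2 and 63 regions for limb mesenchyme, 5 and 31 for melanocytes and 4 and 44 for endothelium. At the starts of the 10 mesenchyme markers, peaks were called for 8 and 6 in forelimb, 4 and 6 in hindlimb, with 8 in forebrain. For the 10 surface ectoderm markers the counts were 8 and 9 in forelimb, 6 and 8 in hindlimb, with 6 in forebrain. Over all 21887 genes they were 13447 and 12895 in forelimb, 11571 and 13369 in hindlimb, with 14446 in forebrain. The part of mesenchyme in the ectoderm values was not tested.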

How the data were processed

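Per the submitters' processing notes, the authors used MACS2 2.1.1.20160309, bedtools, Picard, Bowtie2 2.3.5 and cutadapt 1.16, with mm10. A shift of reads to the cut site was not given in the sources used here. Peaks were called for each library apart and deposited by the authors as narrowPeak lists. Each gives fold enrichment at the summit (a ratio to local background), −log10 of the p-value and q-value, and a score, which is the authors' −log10 q times 10 and was not used. The smallest −log10 q was 1.30, a q of 0.05. No test was made between tissues: forebrain has 1 library.

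Only rows of the autosomes (1 to 19), X and Y entered (Python 3.11.15, pandas 2.3.3, numpy 2.4.6, scipy 1.17.1, matplotlib 3.10.9). Intervals overlapping by 1 bp were merged, and a region went to the protein-coding gene nearest its strongest summit, ties to each. Regions tied with another gene were 4 of 621. Starts came from RefSeq (GRCm38.p6), and 32 of 47 genes had one; otherwise either gene end was used. All 47 symbols matched. Members and lists were chosen with earlier results of these data known. Genes named in full were those with most exclusive regions of each kind in a role group (up to 4, ties by total), a start marked in 1 tissue, or a limb-exclusive region. The steps were tested on simulated data. Alternatives were a −log10 q of 5, lists of equal length, 20 kb assignment, 50% overlap, a start distance of 2.5 kb, distinct intervals, and each ectoderm library left out.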

Additional observations from a re-analysis of the deposited data

Results flagged for a closer look

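Of 17 counts and rates checked over the 4 ectoderm libraries, 2 were flagged for a library apart from the others. Chance gives about 1 in 20 for continuous values, a rate that does not hold for small tied counts. The R-spondin and Lgr genes had 22 peak rows in hindlimb replicate 1, against 52 and 51 in forelimb replicates 1 and 2 and 48 in hindlimb replicate 2. As a rate among 10000 assigned rows this library was not set apart, at 5.04 against 7.91, 8.09 and 6.97. In the group of 6 nuclear effectors and Axin2, 5 genes had a start peak in forelimb replicate 2, which lacked one at Tcf7, and 6 did in each of the other ectoderm libraries. Where all the other counts are equal, any difference is flagged, so 5 against 6 does not set forelimb replicate 2 apart.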

How the results depend on the processing

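Of 145 values under other settings, 114 moved by at most 1.5 times and 31 by more. Lists of equal length moved most. They gave 7 ectoderm-only regions for receptors and 7 for R-spondin and Lgr genes. Forebrain-only regions were then 76 in all, with 22 for ligands, 13 for receptors, 10 for R-spondin and Lgr genes, 4 for Dkk genes and 27 for nuclear effectors and Axin2. They also gave 5 forelimb-only regions, 2 genes with a start peak in ectoderm and not forebrain (Lrp5 and Wnt6) and 1 in forebrain alone (Wnt9a). By construction, fewer peaks entered from every list but the shortest. A −log10 q of 5 or more left 150 and 145 member peak rows in forelimb and 71 and 172 in hindlimb. It left 28 forebrain-only receptor regions, 0 hindlimb-only regions, 1 start peak in ectoderm and not forebrain, and 7 in forebrain alone. Assignment within 20 kb gave 11 forebrain-only Dkk regions, and a start distance of 2.5 kb gave 1 start peak in ectoderm and not forebrain (Wnt10b).

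Leaving out 1 ectoderm library at a time gave 23 to 52 ectoderm-only regions in all, with 10 to 17 for ligands, 4 to 8 for receptors, 3 to 10 for R-spondin and Lgr genes, 0 to 3 for Dkk genes and 5 to 14 for nuclear effectors and Axin2. The highest came without hindlimb replicate 1 in each case, and Dkk genes had 1 without forelimb replicate 2. Start peaks in ectoderm and not forebrain ranged from 0 to 1 (Lgr6, without hindlimb replicate 1). Those in forebrain alone ranged from 0 to 3, with Dkk2, Rspo4 and Wnt9a without forelimb replicate 1 and 1 gene, Wnt8b, without hindlimb replicate 2. No paired analysis was possible because the results come from no test and forebrain has 1 library. A region missed in 1 short list is lost from the ectoderm-only count, and depth is unknown, so these counts are lower where fewer peaks were called.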
